A study of Mus musculus with 12 samples.

Results

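The platelet-derived growth factor (PDGF) genes are the 4 ligand genes Pdgfa, Pdgfb, Pdgfc and Pdgfd and the 2 receptor genes Pdgfra and Pdgfrb. They were found by gene identifier, and all 6 were among the 24432 genes of the table. RNA was sequenced in bulk from 4 groups of 3 mouse libraries. Primary tumors and lung metastases were dissected from Slc34a1CreERT2;Lats1/2flox/flox mice 4 months after tamoxifen, which had been injected 3 times at 1 month of age. CreERT2 is a recombinase that tamoxifen switches on; here it is driven by Slc34a1, a gene of the proximal tubule, and the floxed genes Lats1 and Lats2 encode kinases of the Hippo pathway. Allograft tumors had grown for 6 weeks from Lats1-/-;Lats2-/- cells that were injected under the kidney capsule of NOD/scid hosts aged 6 to 8 weeks; such hosts lack T and B cells. Proximal tubule cells were sorted from kidneys of adult Slc34a1CreERT2;Lats1c/c;Lats2c/+;RosaTomato mice. These last libraries are described as wild type, although the mice carried the same Cre, conditional alleles of both Lats genes, with only 1 conditional copy of Lats2, and a red reporter. The labels used here do not say whether those alleles had been recombined, whether tamoxifen was given, or how many animals or cell lines stand behind a group, so p-values measure the spread between these libraries, which may in part be technical. The strain background is mixed.

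PDGF ligands are secreted dimers that bind receptor tyrosine kinases on nearby cells and drive their growth and migration. PDGF-A and PDGF-C act mainly through the alpha receptor, PDGF-B binds both receptors, and PDGF-D acts mainly through the beta receptor. In the kidney, tubule epithelium and endothelium are known sources of ligand, while the receptors are known from fibroblasts, pericytes and mesangial cells, and PDGF is best known there for mesangial growth and fibrosis. PDGF-A and PDGF-B are cut by furin-like proteases inside the cell, whereas PDGF-C and PDGF-D are secreted in a latent form that plasminogen activators and related proteases open.

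Sequence upstream of the start site is shown for 3 genes whose levels behaved differently: Pdgfa, which was higher in every tumor group than in proximal tubule cells, Pdgfc, the ligand that was lower in 2 of them, and Pdgfra, the receptor that was nearly silent in proximal tubule cells. Each is the 250 bases before the annotated start, 5′ to 3′ on the gene's strand, from RefSeq (GRCm38.p6). Capitals mark a match, on either strand, to CATTCC, the core motif of the TEAD factors through which the Hippo pathway acts; it does not overlap the other motif searched, TGANTCA, an AP-1 site.
Pdgfa: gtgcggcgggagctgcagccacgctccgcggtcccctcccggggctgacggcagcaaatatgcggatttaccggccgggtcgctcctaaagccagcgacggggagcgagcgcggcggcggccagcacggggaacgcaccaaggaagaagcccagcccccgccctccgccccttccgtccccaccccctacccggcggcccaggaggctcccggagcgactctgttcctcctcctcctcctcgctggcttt
Pdgfc: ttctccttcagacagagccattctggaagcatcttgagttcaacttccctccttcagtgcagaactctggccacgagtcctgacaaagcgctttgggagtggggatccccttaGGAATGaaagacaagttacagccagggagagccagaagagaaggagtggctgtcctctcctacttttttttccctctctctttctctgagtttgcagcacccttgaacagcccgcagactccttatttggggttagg
Pdgfra: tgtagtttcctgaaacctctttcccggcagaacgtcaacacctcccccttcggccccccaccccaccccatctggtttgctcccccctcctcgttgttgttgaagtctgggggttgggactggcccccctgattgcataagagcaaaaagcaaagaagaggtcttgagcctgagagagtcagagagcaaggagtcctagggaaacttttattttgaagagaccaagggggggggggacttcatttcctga
These are chr5:138994945-138995194 on the minus strand for Pdgfa, the more upstream of its 2 annotated starts in the table, chr3:81036166-81036415 on the plus strand for Pdgfc and chr5:75152001-75152250 on the plus strand for Pdgfra. Of the 5 windows available, which cover 4 of the 6 genes, the Pdgfc window held the CATTCC core once, as its reverse complement beginning at position -137 from the start. CATTCC was present in 12.6% and TGANTCA in 6.75% of 32851 promoter windows of the same length, and no window of these genes held TGANTCA. A match to so short a motif describes the letters only. The Pdgfa window was also the richest in G and C, at 72.4%, with 28 CG pairs, against 50.8% and 3 CG pairs for Pdgfc and 54.4% and 4 CG pairs for Pdgfra. Windows for Pdgfb and Pdgfrb were not used here.

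Values are the authors' deposited FPKM, fragment numbers scaled to transcript length and library size, so levels of different genes can be set side by side. Differences are on the log2(FPKM + 1) scale, from a limma fit over the 4 groups and 16313 genes that reached 1 FPKM in at least 3 libraries. A gene was called at an adjusted p under 0.05. All 6 PDGF genes passed this filter, Pdgfra through the tumor libraries alone. The estimated depth was 12.1 to 19.6 M fragments (M, mega) in tumor libraries and 5.3 to 6.7 M in proximal tubule libraries. Correlations between libraries of a group were 0.797 to 0.928 in primary tumors, 0.953 to 0.963 in metastases, 0.919 to 0.949 in allograft tumors and 0.961 to 0.969 in proximal tubule cells. Slc34a1, which marks proximal tubule cells, was at 6.17, 833 and 166 FPKM in primary tumors 1, 2 and 3, against 866 to 1040 FPKM in proximal tubule cells, so the library labelled primary tumor 2 held almost as much as the sorted cells. In metastases Slc34a1 was at 0.0169 to 0.0951 FPKM and in allograft tumors at 0.120 to 1.37 FPKM. Lats1 and Lats2 RNA was present in every library, but gene-level FPKM does not resolve the deleted exons and does not check the genotype. The lung metastases also held lung tissue: the summed level of 5 lung epithelial markers was 11780 to 18787 FPKM, against 7.29 to 13.3 in primary tumors and 1.65 to 2.99 in proximal tubule cells, where Sftpc, Sftpb and Scgb1a1 were at 0. The median gene was 0.59, 0.68 and 0.66 higher in primary, metastatic and allograft tumors than in proximal tubule cells, so differences from proximal tubule cells are given beside that shift. Between tumor groups the median lay between -0.02 and 0.03. Rescaling to TPM moved those 3 medians to -0.29, -0.18 and -0.37 and the share of calls that were higher to 35.9%, 43.7% and 33.6%, against 90.8%, 78.9% and 75.6% as deposited. Between tumors TPM moved the medians to 0.04 for metastases over primary tumors, -0.24 for allograft over primary tumors and -0.23 for allograft tumors over metastases.

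Both receptors stood higher in every tumor group than in proximal tubule cells. Of the 4 ligands, 2 were called higher and 1 lower in primary tumors, 3 and 1 in metastases, and 3 and 0 in allograft tumors. Between tumor groups, differences were called for Pdgfa, Pdgfb, Pdgfc and Pdgfra but not for Pdgfd or Pdgfrb. Against proximal tubule cells, 4 of 6 PDGF genes were called higher and 1 lower in primary tumors, where 48.2% of all genes tested were called higher and 4.9% lower (53.1% in either direction). In lung metastases 5 were called higher and 1 lower, against 54% and 14.4% of all genes (68.4% in either direction). In allograft tumors 5 were called higher and 0 lower, against 52.2% and 16.9% of all genes (69.1% in either direction). Since most genes were called in each comparison, the counts alone do not set the PDGF genes apart. Across the 4 groups, limma's F test called all 6, where 79.5% of all genes were called. The 3 comparisons share the same 3 proximal tubule libraries. Between tumor groups fewer were called. Relative to primary tumors, metastases had 2 PDGF genes higher and 0 lower (11.3% and 9.59% of all genes, 20.9% together) and allograft tumors 3 higher and 1 lower (20.5% and 21.1%, 41.6% together). Relative to metastases, allograft tumors had 2 higher and 1 lower (10.4% and 13.3%, 23.7% together).

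**Figure D1:**
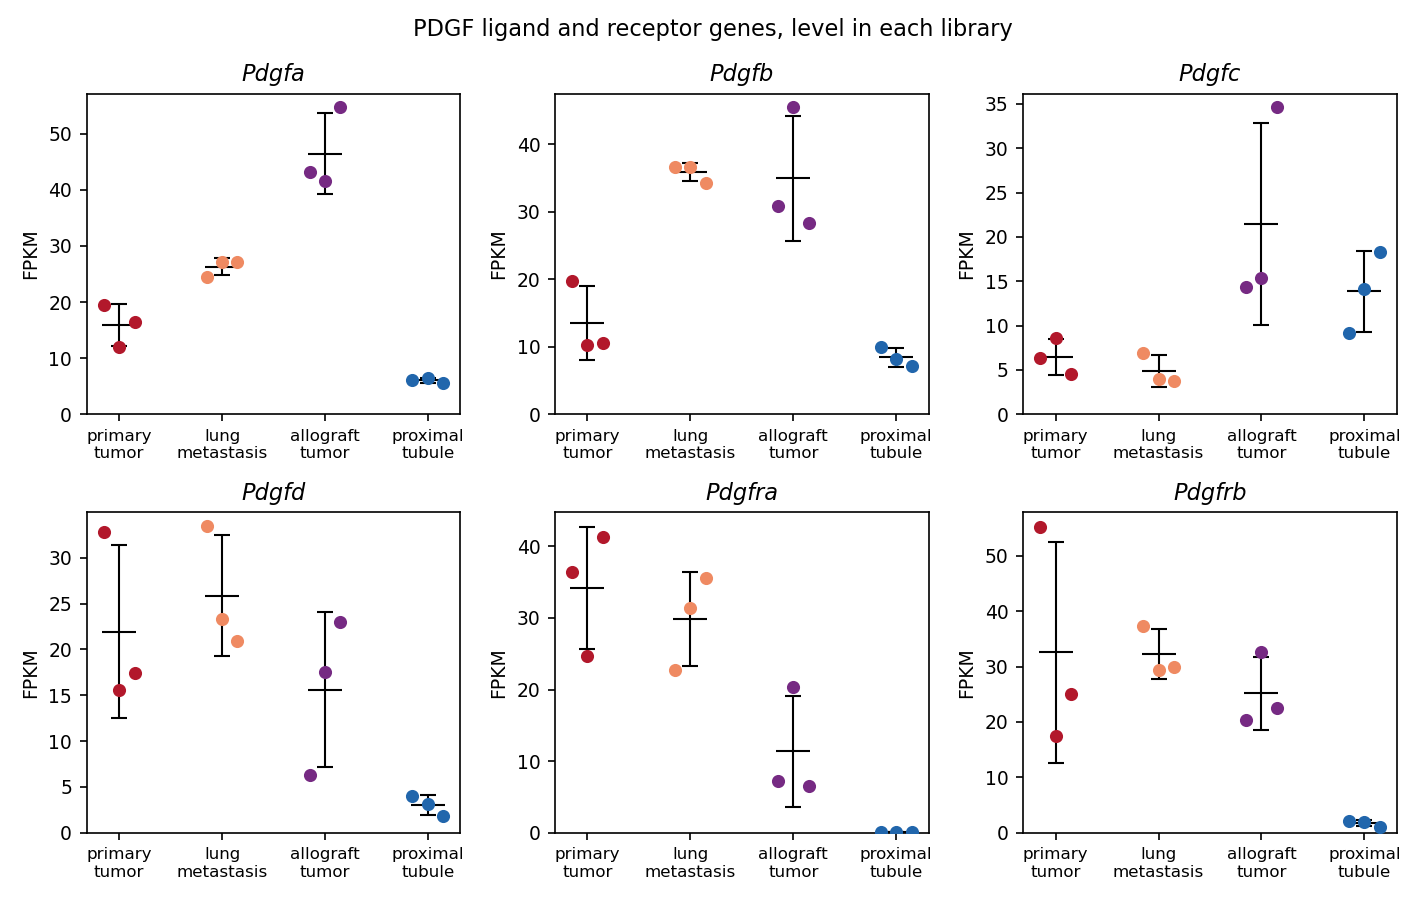
FPKM of each PDGF gene (vertical axis) in the 3 libraries of each group; points are libraries, and the line and bars are the mean and SD. Pdgfa climbs over the 3 tumor groups, Pdgfc is low in primary tumors and metastases, and both receptors lie near 0 in proximal tubule cells.

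Pdgfa (ENSMUSG00000025856, chr5:138976014-138997370, minus strand) encodes the PDGF-A chain, an alpha receptor ligand made by many epithelia. It stood at 19.4, 11.9 and 16.4 FPKM in primary tumors, 24.5, 27.2 and 27.2 FPKM in lung metastases and 43.1, 41.5 and 54.7 FPKM in allograft tumors, against 6.13, 6.48 and 5.59 FPKM in proximal tubule cells. No 2 of the 4 groups overlapped, and the order ran from proximal tubule cells through primary tumors and metastases to allograft tumors. The log2 difference from proximal tubule cells was 1.24 ± 0.18 in primary tumors (SE; limma adjusted p = 0.00038), 1.95 ± 0.18 in metastases (adjusted p = 1.18e-05) and 2.74 ± 0.18 in allograft tumors (adjusted p = 2.7e-06). Allograft tumors exceeded primary tumors by 1.50 ± 0.18 (adjusted p = 0.000287) and metastases by 0.79 ± 0.18 (adjusted p = 0.011). Metastases exceeded primary tumors by 0.71 ± 0.18 (adjusted p = 0.0223), but that call was lost without primary tumors 2 and 3 (0.41, adjusted p = 0.335), without either of these 2 or any 1 metastasis, with TPM (0.73, adjusted p = 0.0836), without the 50 most abundant genes (adjusted p = 0.1) and with only the 2 groups fitted (adjusted p = 0.0927). With TPM the calls for primary tumors against proximal tubule cells (0.23, adjusted p = 0.472) and for allograft tumors against metastases (0.43, adjusted p = 0.306) were also lost. Quantile normalization likewise lost the first of these (0.59, adjusted p = 0.0546), and leaving out the 50 most abundant genes lost the second (0.53, adjusted p = 0.182).

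Pdgfb (ENSMUSG00000000489, chr15:79995874-80014977, minus strand) encodes the PDGF-B chain, the ligand of both receptors, made by endothelium and stored in platelets. Its levels were 19.8, 10.3 and 10.5 FPKM in primary tumors, 36.6, 36.7 and 34.3 FPKM in metastases and 30.8, 45.6 and 28.4 FPKM in allograft tumors, against 9.93, 8.24 and 7.17 FPKM in proximal tubule cells. Metastases and allograft tumors overlapped each other and lay above every other library, and primary tumor 1 stood apart from the other 2 primary tumors. Pdgfb rose in metastases by 1.97 ± 0.26 (adjusted p = 7.95e-05) and in allograft tumors by 1.91 ± 0.26 (adjusted p = 8.41e-05) relative to proximal tubule cells. In primary tumors the difference was 0.57 ± 0.26 (adjusted p = 0.0832), close to the shift of the median gene. It was called without primary tumor 2 (0.72, adjusted p = 0.0462), without primary tumors 2 and 3 (1.15, adjusted p = 0.00629) and with array weights (0.36, adjusted p = 0.0488). It was 0.28 without primary tumor 1 (adjusted p = 0.288), 0.22 without the 50 most abundant genes and 0.007 for protein-coding genes with median-of-ratios scaling, and it turned to -0.44 with TPM, -0.03 with median-of-ratios scaling and -0.04 with quantile normalization. Relative to primary tumors, Pdgfb was higher in metastases by 1.41 ± 0.26 (adjusted p = 0.00422) and in allograft tumors by 1.34 ± 0.26 (adjusted p = 0.0025). Without primary tumors 2 and 3 both calls were lost (0.83, adjusted p = 0.131, and 0.76, adjusted p = 0.0774). With TPM the calls of allograft tumors were lost against proximal tubule cells (0.57, adjusted p = 0.196) and against primary tumors (1.01, adjusted p = 0.0553).

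Markers of platelets and endothelium, known sources of PDGF-B, moved with part of this pattern. Pf4, a platelet chemokine, was at 92.3, 4.38 and 6.77 FPKM in primary tumors, 94.9, 83.7 and 59.7 FPKM in metastases and 82.5, 57.5 and 18.3 FPKM in allograft tumors, against 0, 0.419 and 0.905 FPKM in proximal tubule cells. Primary tumor 1 was thus the highest of its group in both genes. Of other platelet markers, Ppbp was also highest there (7.92, against 1.54 and 1.58 FPKM). Itga2b was instead lowest in primary tumor 1 (2.61, against 3.71 and 4.38 FPKM). The summed level of the 5 platelet and megakaryocyte markers was 10.1 to 103 FPKM in primary tumors, 77.1 to 108 in metastases and 27.7 to 90.4 in allograft tumors, against 1.85 to 2.51 in proximal tubule cells, where Gp9 was at 0. Pf4 alone was most of that sum in primary tumor 1 and in every metastasis and allograft tumor. Itga2b was at 2.61 to 4.38 FPKM in primary tumors, 3.08 to 3.57 in metastases and 2.92 to 3.65 in allograft tumors. Gp9 and Gp5 reached at most 1.63 and 0.438 FPKM in any tumor. Of the 5 markers, the 3 that passed the filter rose in each tumor group relative to proximal tubule cells. In those comparisons 48.2%, 54% and 52.2% of all genes were called higher. Of the 3, 1 was called higher in metastases than in primary tumors (11.3% of all genes). In allograft over primary tumors 0 of the 3 were called higher (20.5% of all genes). The sum of 8 endothelial markers was 184 to 252 FPKM in primary tumors, 330 to 564 in metastases and 77.0 to 137 in allograft tumors, against 39.4 to 59.5 in proximal tubule cells. In metastases over primary tumors, where Pdgfb was higher, 6 of the 8 were called higher and 1 lower (11.3% and 9.59% of all genes). In allograft over primary tumors, where Pdgfb was also higher, 0 were called higher and 3 lower (20.5% and 21.1% of all genes). All 8 were called lower in allograft tumors than in metastases (10.4% of all genes were called higher and 13.3% lower). Pdgfb differed there by -0.07 ± 0.26 (limma adjusted p = 0.897). The part of platelets, of endothelium and, in metastases, of the lung tissue they held in the Pdgfb levels was not tested.

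Pdgfc (ENSMUSG00000028019, chr3:81036416-81214040, plus strand) encodes PDGF-C, an alpha receptor ligand with a latency domain. Its levels were 6.31, 8.57 and 4.52 FPKM in primary tumors, 6.95, 3.95 and 3.73 FPKM in metastases and 14.3, 15.4 and 34.6 FPKM in allograft tumors, against 9.20, 14.1 and 18.3 FPKM in proximal tubule cells. All primary tumors and metastases lay below the lowest proximal tubule library, while allograft tumors overlapped proximal tubule cells, with allograft tumor 3 the highest of all libraries. Pdgfc fell by 1.33 ± 0.38 in metastases relative to proximal tubule cells (adjusted p = 0.0089), against a median gene that was 0.68 higher. It was -0.98 ± 0.38 in primary tumors (adjusted p = 0.0473), a call that was lost without primary tumor 1 (adjusted p = 0.0838), primary tumor 3 (0.142), metastasis 2 (0.0613), metastasis 3 (0.0587), allograft tumor 2 (0.0533), proximal tubule library 2 (0.109) or proximal tubule library 3 (0.158), all p being adjusted. It was also lost without primary tumors 2 and 3 (0.146), with a pseudocount of 5 (0.0639), with no filter (0.0624) and with only the 2 groups fitted (0.0501). In allograft tumors the difference was 0.53 ± 0.38 (adjusted p = 0.228). Allograft tumors held more Pdgfc than primary tumors by 1.51 ± 0.38 (adjusted p = 0.00921) and more than metastases by 1.86 ± 0.38 (adjusted p = 0.00537). The first of these calls was lost without primary tumors 2 and 3 (1.51, adjusted p = 0.0794), where a single primary tumor was left. Metastases and primary tumors overlapped (-0.35 ± 0.38, adjusted p = 0.536).

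Pdgfd (ENSMUSG00000032006, chr9:6168584-6378850, plus strand) encodes PDGF-D, the latent ligand that acts mainly through the beta receptor. It was at 32.8, 15.6 and 17.4 FPKM in primary tumors, 33.4, 23.3 and 20.9 FPKM in metastases and 6.34, 17.5 and 23.0 FPKM in allograft tumors, against 4.04, 3.14 and 1.84 FPKM in proximal tubule cells. Every tumor exceeded every proximal tubule library, and the 3 tumor groups overlapped, with allograft tumor 1 lowest. The log2 difference from proximal tubule cells was 2.48 ± 0.44 in primary tumors (adjusted p = 0.00106), 2.76 ± 0.44 in metastases (adjusted p = 0.00029) and 1.93 ± 0.44 in allograft tumors (adjusted p = 0.00257). The call in allograft tumors was lost with TPM (0.73, adjusted p = 0.217) and with quantile normalization (1.11, adjusted p = 0.0526). Between tumor groups no difference was called: 0.28 ± 0.44 for metastases over primary tumors, -0.56 ± 0.44 for allograft over primary tumors and -0.83 ± 0.44 for allograft tumors over metastases (adjusted p = 0.693, 0.335 and 0.203 in that order).

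Pdgfra (ENSMUSG00000029231, chr5:75152292-75198215, plus strand) encodes the alpha receptor, a marker of fibroblasts and other stromal cells. It was at 36.4, 24.7 and 41.3 FPKM in primary tumors, 22.7, 31.4 and 35.6 FPKM in metastases and 7.21, 20.3 and 6.54 FPKM in allograft tumors, against 0.0894, 0.114 and 0.148 FPKM in proximal tubule cells. The proximal tubule values correspond to an estimated 3.2, 5.2 and 6.1 fragments, so their exact level is poorly known. All 9 tumors lay far above them, and allograft tumors lay below all other tumors. Mean FPKM was 291-fold higher in primary tumors, 255-fold in metastases and 96.7-fold in allograft tumors than in proximal tubule cells. On the log2(FPKM + 1) scale, which understates changes of low genes, the differences were 4.94 ± 0.36 (adjusted p = 8.67e-06), 4.77 ± 0.36 (adjusted p = 3.82e-06) and 3.30 ± 0.36 (adjusted p = 2.63e-05). The first of them ran from 2.91 to 7.28 over the other pseudocounts, filters, scalings and variance models and was called under each. Pdgfra was lower in allograft than in primary tumors by -1.65 ± 0.36 (adjusted p = 0.00528; 0.0527 when only these 2 groups were fitted) and lower than in metastases by -1.47 ± 0.36 (adjusted p = 0.0153). The call against metastases was lost without metastasis 2 (adjusted p = 0.0552), metastasis 3 (0.0654) or allograft tumor 1 (0.0614). Metastases and primary tumors overlapped (-0.18 ± 0.36, adjusted p = 0.768).

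Pdgfrb (ENSMUSG00000024620, chr18:61045150-61085061, plus strand) encodes the beta receptor of pericytes, mesangial cells and fibroblasts. Its levels were 55.2, 17.5 and 25.0 FPKM in primary tumors, 37.4, 29.3 and 30.0 FPKM in metastases and 20.4, 32.7 and 22.5 FPKM in allograft tumors, against 2.17, 2.01 and 1.13 FPKM in proximal tubule cells. Every tumor exceeded every proximal tubule library, and the tumor groups overlapped one another, with primary tumor 1 the highest library and primary tumor 2 the lowest tumor. Mean FPKM was 18.4-fold higher in primary tumors, 18.2-fold in metastases and 14.2-fold in allograft tumors than in proximal tubule cells. The log2 differences were 3.46 ± 0.36 (adjusted p = 5.72e-05), 3.60 ± 0.36 (adjusted p = 1.7e-05) and 3.23 ± 0.36 (adjusted p = 2.72e-05). Both receptors kept their calls against proximal tubule cells under each of 27 alternative settings. Between tumor groups Pdgfrb was not called: 0.14 ± 0.36 for metastases over primary tumors, -0.23 ± 0.36 for allograft over primary tumors and -0.37 ± 0.36 for allograft tumors over metastases (adjusted p = 0.82, 0.643 and 0.519 in that order).

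**Figure D2:**
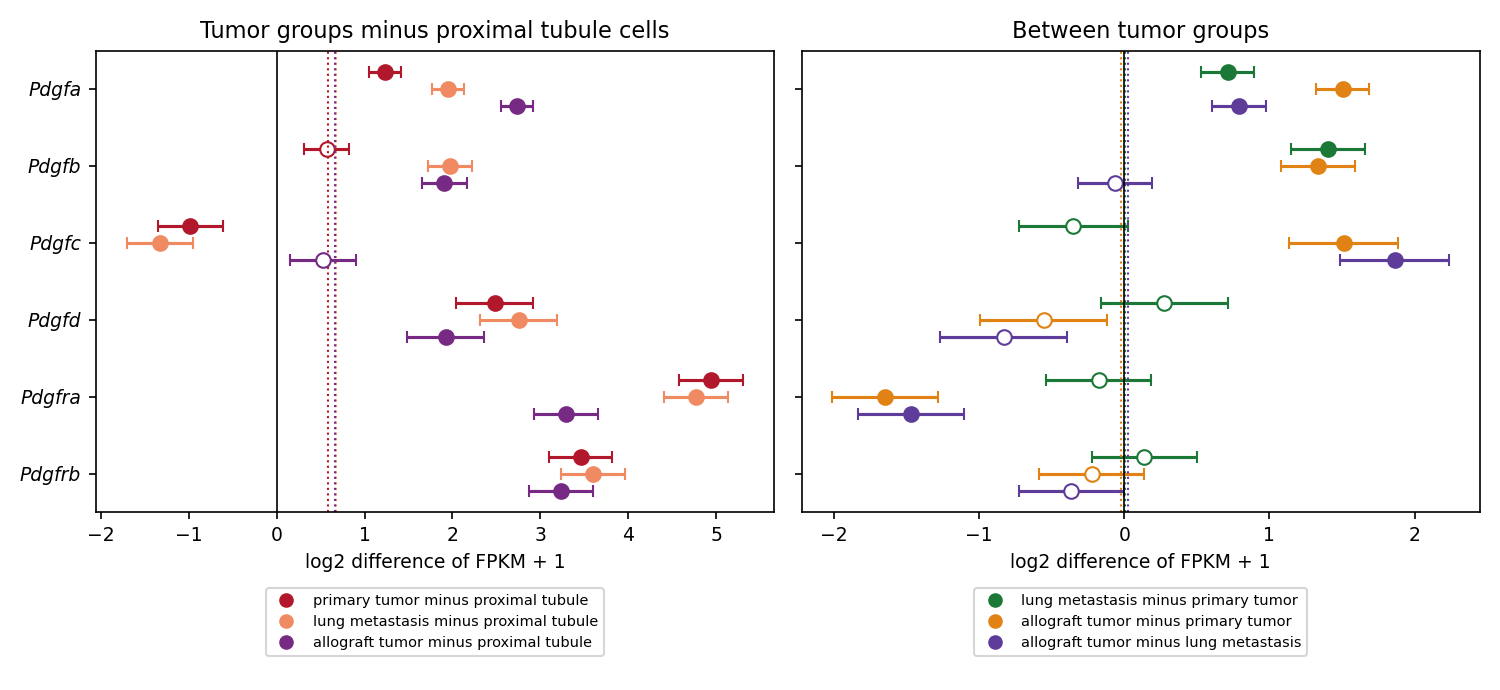
Log2 difference of FPKM + 1 (horizontal axis) for each PDGF gene, tumor groups minus proximal tubule cells on the left and between tumor groups on the right. Points are limma estimates, bars 1 SE, filled points are called at an adjusted p under 0.05, and dotted lines mark the median over all 16313 genes. The receptors and Pdgfd lie right of the median lines in all 3 comparisons on the left, and Pdgfc lies left of 0 in primary tumors and metastases.

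The makeup of the ligand pool differed between groups. The 4 ligands summed to 46.3 to 78.3 FPKM in primary tumors, 86.1 to 101 in metastases and 94.6 to 141 in allograft tumors, against 29.3 to 32.9 in proximal tubule cells. Pdgfc made up 8.06% to 18.5% of that sum in primary tumors, 4.33% to 6.85% in metastases and 12.8% to 24.6% in allograft tumors, against 31.4% to 55.6% in proximal tubule cells. It was the leading ligand in proximal tubule libraries 2 and 3. Pdgfd led in all 3 primary tumors, at 33.7% to 41.9%. Pdgfb led in all 3 metastases, at 36.0% to 40.2%. Pdgfa led in allograft tumors 1 and 3, at 45.6% and 38.9%, and Pdgfb in allograft tumor 2, at 38.0%.

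Within a library, the log2 level of Pdgfa exceeded that of Pdgfc by 1.19 ± 0.67 in primary tumors, 2.25 ± 0.50 in metastases and 1.18 ± 0.47 in allograft tumors, against -1.03 ± 0.52 in proximal tubule cells (SD, n = 3 each). The sign was positive in 9 of 9 tumors and negative in 3 of 3 proximal tubule libraries. An exact two-sided permutation test gave p = 0.1 for each tumor group against proximal tubule cells, the smallest that 3 against 3 libraries allow, and 0.129 after adjustment over the 18 pair comparisons made. No pair comparison could therefore pass 0.05.

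The receptors changed their balance as well. Pdgfrb made up 37.7% to 60.2% of the receptor sum in primary tumors, 45.7% to 62.3% in metastases and 61.7% to 77.5% in allograft tumors, against 88.4% to 96.0% in proximal tubule cells. The receptor sum was 42.2 to 91.6 FPKM in primary tumors, 60.1 to 65.7 in metastases and 27.6 to 53.0 in allograft tumors, against 1.28 to 2.26 in proximal tubule cells. The log2 level of Pdgfrb minus that of Pdgfra was -0.20 ± 0.69 in primary tumors, 0.12 ± 0.51 in metastases and 1.23 ± 0.51 in allograft tumors, against 1.29 ± 0.35 in proximal tubule cells (SD, n = 3 each). Primary tumors and metastases did not overlap proximal tubule cells, whereas allograft tumors did (exact permutation p = 0.8). The value of 1.29 in proximal tubule cells depends on the pseudocount, since Pdgfra is near 0 there, and so does each tumor group's difference from it. For allograft tumors that difference was -0.06 and became 0.56 with a pseudocount of 5. The Pdgfrb share of the receptor sum, which uses no pseudocount, did not overlap between allograft tumors and proximal tubule cells.

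The ratio of summed ligand to summed receptor FPKM was 0.855, 1.10 and 0.737 in primary tumors, 1.69, 1.50 and 1.31 in metastases and 3.43, 2.26 and 4.85 in allograft tumors, against 13.0, 15.1 and 25.8 in proximal tubule cells. The 4 groups did not overlap. Proximal tubule cells thus held ligand RNA with little receptor RNA, and primary tumors held about as much of each. Pdgfb, the ligand known to be needed for pericytes, was lower than Pdgfrb by a log2 difference of -1.11 ± 0.36 in primary tumors, and it was higher by 0.16 ± 0.18 in metastases and 0.45 ± 0.12 in allograft tumors, against 1.78 ± 0.16 in proximal tubule cells (SD, n = 3 each). In bulk libraries, fewer cells of a type and less RNA per cell cannot be told apart.

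**Figure D3:**
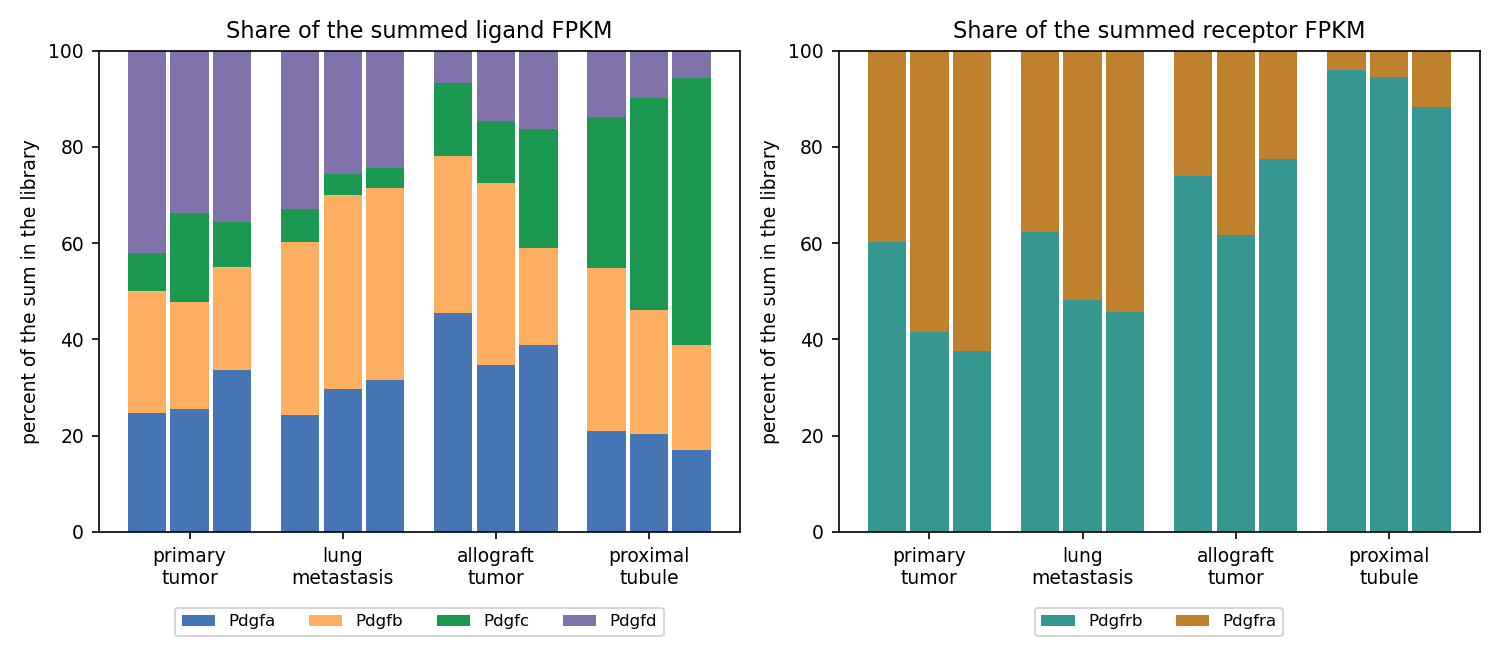
Percent of the summed ligand FPKM (left) and of the summed receptor FPKM (right) held by each gene; each bar is 1 library, in replicate order within a group. Pdgfc fills 31.4% to 55.6% of the ligand bars of proximal tubule cells and at most 24.6% of any tumor bar, and Pdgfrb fills 88.4% to 96.0% of their receptor bars.

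Markers of stromal cells, the known site of both receptors, moved with them against proximal tubule cells. All 8 fibroblast markers rose in each tumor group, and their sum was 135 to 903 FPKM in primary tumors, 405 to 534 in metastases and 975 to 2406 in allograft tumors, against 1.73 to 2.96 in proximal tubule cells, where Dpt was at 0. Against proximal tubule cells 48.2%, 54% and 52.2% of all genes were called higher in the 3 tumor groups. In allograft tumors, where Pdgfra was lower, 5 of 8 were called higher and none lower than in primary tumors (20.5% and 21.1% of all genes). Relative to metastases, 3 of 8 were higher there and none lower (10.4% and 13.3% of all genes). Lum, a collagen-binding proteoglycan, stood at 35.8, 76.0 and 21.5 FPKM in allograft tumors, against 2.80, 3.40 and 5.78 FPKM in metastases (difference 3.05, adjusted p = 0.00138).

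Pericyte and smooth muscle markers were mixed. Of 11, 5 were called higher and 1 lower in primary tumors than in proximal tubule cells, 7 and 2 in metastases, and 8 and 2 in allograft tumors. Of all genes, 48.2% were called higher and 4.9% lower in primary tumors, 54% and 14.4% in metastases, and 52.2% and 16.9% in allograft tumors. Their sum was 121 to 394 FPKM in primary tumors, 414 to 455 in metastases and 410 to 517 in allograft tumors, against 73.1 to 79.6 in proximal tubule cells. Cspg4, which encodes the pericyte proteoglycan NG2, did not rise with Pdgfrb: it was at 6.11, 6.85 and 5.46 FPKM in primary tumors, 5.68, 4.58 and 4.42 FPKM in metastases and 5.51, 8.87 and 3.35 FPKM in allograft tumors, against 10.3, 10.7 and 11.0 FPKM in proximal tubule cells. It fell in metastases by 0.99 (adjusted p = 0.00514) and in allograft tumors by 0.84 (adjusted p = 0.0125). In primary tumors its difference was -0.72 (adjusted p = 0.0352), lost without any 1 of primary tumors 1 and 3, metastasis 2 or the proximal tubule libraries (adjusted p = 0.0505 to 0.092).

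Rgs5, a regulator of G protein signalling typical of pericytes, was at 47.5, 27.6 and 48.2 FPKM in primary tumors, 18.8, 4.34 and 6.48 FPKM in metastases and 35.4, 58.9 and 65.2 FPKM in allograft tumors, against 22.5, 23.9 and 25.5 FPKM in proximal tubule cells. Its metastases lay below all other libraries, whereas Pdgfrb in metastases overlapped the other tumor groups. Rgs5 was the 1 gene of the 11 called lower in metastases than in primary tumors, and 3 were called higher (9.59% and 11.3% of all genes). These were Mcam (2.69, adjusted p = 0.00057), Cnn1 (2.84, adjusted p = 0.00775) and Acta2 (2.03, adjusted p = 0.0473). The Acta2 call was lost with TPM (adjusted p = 0.0539), a pseudocount of 0.1 (0.0515), quantile normalization (0.0591) and no filter (0.063). It was also lost without any 1 library other than primary tumor 1 (0.0508 to 0.16). Without primary tumors 2 and 3 the Acta2 difference was 0.17. With only the 2 groups fitted, Acta2 (adjusted p = 0.151), Rgs5 (0.0684) and Cnn1 (0.0798) all lost their calls.

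The 4 mesangial and juxtaglomerular markers were mixed too, with 3 called higher and 0 lower in primary tumors than in proximal tubule cells, 2 and 1 in metastases, and 1 and 1 in allograft tumors. The shares over all genes were 48.2% and 4.9%, 54% and 14.4%, and 52.2% and 16.9% in that order. In allograft over primary tumors 1 of the 4 was called higher and 3 lower (20.5% and 21.1% of all genes). In allograft tumors over metastases 0 were called higher and 1 lower (10.4% and 13.3%). Metastases over primary tumors gave 0 called higher and 2 lower, Ren1 and Gata3 (11.3% and 9.59%). Ren1 was at 19.5 to 39.7 FPKM in primary tumors and 11.3 to 20.7 FPKM in proximal tubule cells. It was at 0 to 0.104 FPKM in metastases and 0.136 to 0.71 FPKM in allograft tumors. Its difference from primary tumors was -4.70 in metastases (limma adjusted p = 3.8e-06), where neither receptor was called, and -4.27 in allograft tumors (2.43e-05). Itga8, an integrin of mesangial cells, was at 1.20, 0.435 and 0.655 FPKM in allograft tumors, against 11.1, 8.94 and 12.1 FPKM in primary tumors and 9.44, 16.3 and 26.8 FPKM in metastases. It was lower in allograft tumors than in primary tumors by -2.74 (adjusted p = 0.000213) and than in metastases by -3.30 (adjusted p = 5.16e-05), the same direction as Pdgfra there. Serpine2, a protease inhibitor and the most abundant of the 4 over the 12 libraries, was called higher in allograft than in primary tumors (1.23, adjusted p = 0.0367). That call was lost with TPM (0.91, adjusted p = 0.2), quantile normalization (0.0817), only the 2 groups fitted (0.13) and without the 50 most abundant genes (0.157). It was also lost without any 1 of primary tumors 2 and 3 or allograft tumors 2 and 3 (0.0789 to 0.124). Leaving out metastasis 2 or proximal tubule library 2 or 3 lost it as well (0.0503 to 0.0508). Without primary tumors 2 and 3 the difference was 0.31. The 6 macrophage markers summed to 331 to 2192 FPKM in primary tumors, 4604 to 5276 in metastases and 1343 to 5092 in allograft tumors, against 3.67 to 4.09 in proximal tubule cells, and all 6 rose in each tumor group. In metastases Lyz2 alone was at 3678 to 4493 FPKM, most of that sum. Between allograft tumors and metastases 0 of the 6 were called higher and 0 lower. The part of these cell types in the receptor levels was not tested.

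**Figure D4:**
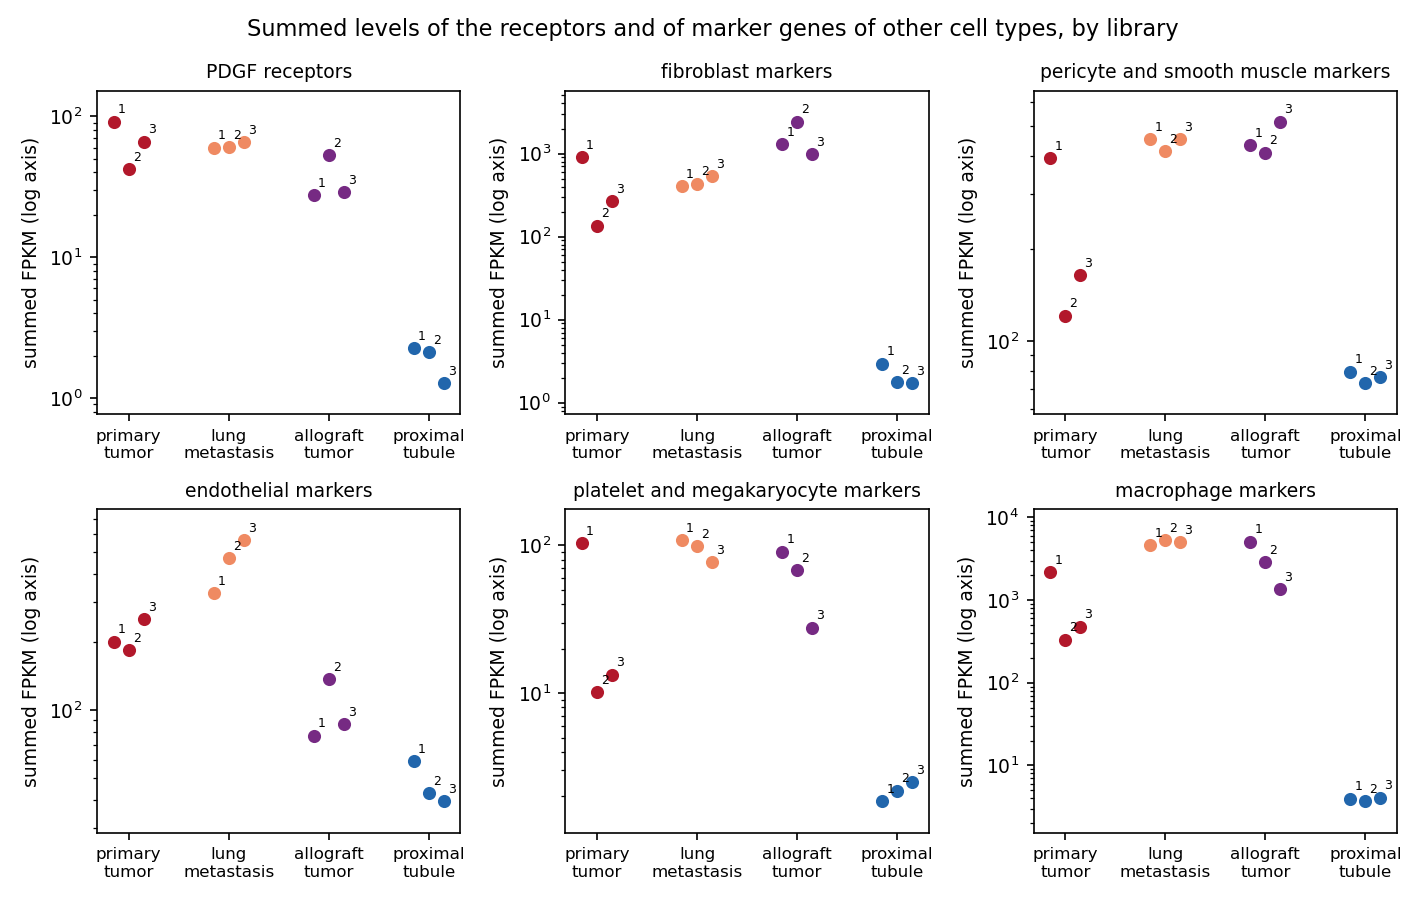
Summed FPKM (vertical log axes) of the 2 receptors and of 5 marker lists in each library; numbers beside the points are replicate numbers. Receptors and fibroblast markers are both lowest in proximal tubule cells, and among the tumors, allograft tumors 1 and 3 have the lowest receptor sums while all 3 allograft tumors have the highest fibroblast sums.

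Genes that act on the ligands and receptors were counted in the same fit. Over 5 lists together, which hold 61 genes tested, 37 were called higher and 6 lower in primary tumors than in proximal tubule cells (48.2% and 4.9% of all genes), 42 and 7 in metastases (54% and 14.4%), and 35 and 9 in allograft tumors (52.2% and 16.9%). These splits follow the scaling: with TPM they were 9 higher and 18 lower, 16 and 15, and 12 and 25. The genes named next as risen or fallen kept their direction under each scaling, except Pcsk7. Of 9 genes for ligand processing and co-receptors, 6 were called higher and 1 lower in primary tumors than in proximal tubule cells, 4 and 3 in metastases, and 3 and 3 in allograft tumors. Lrp1, a lipoprotein receptor that binds the beta receptor, was at 61.6, 19.1 and 30.9 FPKM in primary tumors, 51.9, 47.9 and 51.5 FPKM in metastases and 86.7, 120 and 107 FPKM in allograft tumors, against 0.962, 1.02 and 0.982 FPKM in proximal tubule cells. It rose by 4.11, 4.69 and 5.72 in that order (adjusted p = 1.31e-05, 2.18e-06 and 1.2e-06). Plat, the tissue plasminogen activator that opens PDGF-C, rose by 3.15, 2.94 and 3.44 in the 3 tumor groups (adjusted p = 1.17e-05, 5.99e-06 and 3.33e-06). Pdgfc, the gene of its substrate, was not called higher in any of them.

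The other proteases went both ways. Furin, which cuts PDGF-A and PDGF-B, was at 16.8, 37.9 and 36.1 FPKM in primary tumors, 25.2, 25.0 and 21.8 FPKM in metastases and 6.22, 13.4 and 19.1 FPKM in allograft tumors, against 65.1, 61.8 and 74.1 FPKM in proximal tubule cells. It fell by 1.44 in metastases (adjusted p = 0.00567) and by 2.41 in allograft tumors (adjusted p = 0.000218). In primary tumors the difference was -1.20 (adjusted p = 0.0204), lost without primary tumor 1 (0.0669) or proximal tubule library 3 (0.0622). Plau, the urokinase that opens PDGF-D, was at 188, 209 and 290 FPKM in primary tumors, 49.8, 43.8 and 31.5 FPKM in metastases and 68.1, 49.5 and 49.6 FPKM in allograft tumors, against 211, 241 and 326 FPKM in proximal tubule cells. In primary tumors its difference from proximal tubule cells was -0.18 (adjusted p = 0.557), and 0.12 with array weights (adjusted p = 0.65). It was called lower with TPM (-1.29, adjusted p = 0.00478) and with median-of-ratios scaling (-0.84, adjusted p = 0.0204). For protein-coding genes with that scaling it was also called lower (-0.80, adjusted p = 0.0243). Plau was lower than in primary tumors by -2.43 in metastases (adjusted p = 0.000106) and by -2.01 in allograft tumors (adjusted p = 0.000316). St14, which encodes matriptase, another PDGF-D protease, was at 13.1, 9.36 and 26.3 FPKM in primary tumors, 6.28, 7.90 and 7.13 FPKM in metastases and 0.436, 3.02 and 0.818 FPKM in allograft tumors, against 2.33, 3.45 and 3.57 FPKM in proximal tubule cells. Relative to proximal tubule cells it was called higher in primary tumors (1.96, adjusted p = 0.00271), a call lost with TPM (1.01, adjusted p = 0.0722). The other differences from proximal tubule cells were 0.99 in metastases (adjusted p = 0.0517) and -0.90 in allograft tumors (adjusted p = 0.0716). St14 was lower in allograft than in primary tumors (-2.86, adjusted p = 0.000618) and metastases (-1.88, adjusted p = 0.00797). Pcsk7 and Pcsk6, convertases of the furin family that were named after their values were seen, were called higher in primary tumors than in proximal tubule cells by 1.03 (adjusted p = 0.0025) and 1.86 (adjusted p = 0.0267), but each call was lost under every scaling tried, and Pcsk7 was -0.008 with TPM.

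Of 22 genes of receptor signalling, 14 were called higher and none lower in primary tumors than in proximal tubule cells, 18 and 1 in metastases, and 15 and 1 in allograft tumors. Over all genes the shares were 48.2% and 4.9%, 54% and 14.4%, and 52.2% and 16.9% in that order. The medians of the 22 genes, 0.61, 0.81 and 0.76, lay close to those of all genes. Fyn, a Src family kinase that the receptors recruit, rose by 2.32, 3.15 and 2.66 in the 3 tumor groups (adjusted p = 8.75e-05, 6.17e-06 and 1.49e-05). Src itself was at 57.8, 53.5 and 57.7 FPKM in allograft tumors, against 28, 19.0 and 19.0 FPKM in primary tumors and 26.0, 21.6 and 25.9 FPKM in metastases. It exceeded primary tumors by 1.34 (adjusted p = 0.000493) and metastases by 1.17 (adjusted p = 0.00128). Mapk3, the kinase ERK1, was at 67.6, 70.0 and 71.9 FPKM in metastases, against 42.6, 34.6 and 33.0 FPKM in primary tumors (difference 0.92, adjusted p = 0.00166).

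Of 10 genes that restrain the receptors, 6 were called higher and none lower in primary tumors than in proximal tubule cells, 7 and none in metastases, and 7 and 1 in allograft tumors. Their medians of 0.80, 0.95 and 0.93 stood against 0.59, 0.68 and 0.66 over all genes, and 48.2%, 54% and 52.2% of all genes were called higher. Spry1, an inhibitor induced by receptor signalling, was at 25.3, 12.9 and 21.1 FPKM in primary tumors, 28.7, 27.6 and 27.3 FPKM in metastases and 34.4, 33.8 and 23.4 FPKM in allograft tumors, against 3.40, 5.53 and 2.19 FPKM in proximal tubule cells. It rose by 2.16, 2.68 and 2.79 (adjusted p = 0.000239, 2.94e-05 and 2.04e-05). Spry4, of the same family, was at 0.697, 1.18 and 1.51 FPKM in allograft tumors, against 4.17, 4.90 and 4.48 FPKM in metastases (difference -1.39, adjusted p = 0.000548).

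Genes known as rapid responses to PDGF in cultured fibroblasts moved both ways. Of 7, 1 was called higher and 4 lower in primary tumors than in proximal tubule cells, 2 and 2 in metastases, and 2 and 3 in allograft tumors. The shares over all genes were 48.2% and 4.9%, 54% and 14.4%, and 52.2% and 16.9% in that order. Fos, an immediate early transcription factor, was at 12, 4.28 and 10.2 FPKM in primary tumors, 16.8, 48.8 and 61.7 FPKM in metastases and 51.9, 93.0 and 17.4 FPKM in allograft tumors, against 397, 252 and 155 FPKM in proximal tubule cells. It fell by 4.77, 2.72 and 2.48 (adjusted p = 0.000257, 0.00395 and 0.00643), and Egr1, of the same kind, fell by 3.03, 3.14 and 3.12 (adjusted p = 7.22e-05, 2.27e-05 and 2.07e-05). The proximal tubule cells were sorted and the tumors dissected, and this handling cannot be told apart from the group. Ccl2, a chemokine first cloned as a PDGF-induced gene, was at 69.6, 3.68 and 4.50 FPKM in primary tumors, 66.7, 76.5 and 61.2 FPKM in metastases and 45.3, 52.5 and 6.78 FPKM in allograft tumors, against 1.40, 0.539 and 1.46 FPKM in proximal tubule cells. It was the 1 gene of the 7 called higher in primary tumors (2.55, adjusted p = 0.0484), and that call was lost without primary tumor 1 (1.28, adjusted p = 0.141), under each scaling tried (adjusted p = 0.0799 to 0.295) and with robust empirical Bayes (adjusted p = 0.0545). Leaving out any 1 metastasis (0.064 to 0.0647), allograft tumor 1 (0.0562) or 2 (0.0529) or any 1 proximal tubule library (0.0871 to 0.124) lost it too. So did a pseudocount of 5 (0.116), no filter (0.0651), a filter of 5 FPKM (0.0508) and fitting only the 2 groups (0.102). In metastases it rose by 5.04 (adjusted p = 0.00103) and in allograft tumors by 3.68 (adjusted p = 0.00638).

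Related receptors and ligands of the same kinase class and of the VEGF family, to which PDGFs are kin, gave 10 genes called higher and 1 lower of 13 in primary tumors relative to proximal tubule cells, 11 and 1 in metastases, and 8 and 1 in allograft tumors. The shares over all genes were 48.2% and 4.9%, 54% and 14.4%, and 52.2% and 16.9% in that order. Csf1r, the macrophage growth factor receptor, rose by 3.35, 4.17 and 4.52 (adjusted p = 0.000548, 6.86e-05 and 3.55e-05). Kit, the stem cell factor receptor, was at 0.410, 0.988 and 1.28 FPKM in allograft tumors, against 5.51, 6.57 and 15.1 FPKM in primary tumors and 13.2, 20.2 and 23.5 FPKM in metastases. Like Pdgfra, it was lower in allograft tumors than in primary tumors (-2.32, adjusted p = 0.000724) and metastases (-3.39, adjusted p = 8.33e-05). Pgf, the placental growth factor of the VEGF family, was, like Pdgfb, lowest among tumors in the primary ones. It was at 1.40, 0.380 and 0.803 FPKM in primary tumors, 28.4, 20.5 and 14 FPKM in metastases and 12.5, 24.1 and 50.9 FPKM in allograft tumors, against 0.176, 0 and 0.148 FPKM in proximal tubule cells. It exceeded primary tumors by 3.54 in metastases (adjusted p = 0.000372) and by 3.84 in allograft tumors (adjusted p = 0.000209). Vegfb fell in all 3 tumor groups, by 1.59, 2.29 and 1.99 (adjusted p = 0.00409, 0.000265 and 0.000594).

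The genes whose levels over the 12 libraries were most like each PDGF gene were found by Pearson correlation of log2(FPKM + 1). They describe these libraries, which fall into 4 groups and share depth differences. For Pdgfa they were Prr33 (r = 0.993), Me2 (0.992) and Krt18 (0.992), a keratin of simple epithelia. For Pdgfb they were Arg1 (0.990), an arginase, Col7a1 (0.985), a collagen of epithelial anchoring fibrils, and Anxa8 (0.982). Pdgfc had weaker neighbours, Npepps (0.922), Alg10b (0.909) and Cldn12 (0.907). Pdgfd was nearest to Trim26 (0.977), Mxra7 (0.976) and Slc41a1 (0.975). For the receptors the nearest were Abca8a (0.992), Ctsw (0.987) and Uckl1os (0.986) for Pdgfra, and Emilin1 (0.991), an elastic fibre protein, Birc3 (0.991) and Psd3 (0.990) for Pdgfrb. Over the 9 tumors alone, r with the nearest gene was 0.978 for Pdgfa, 0.990 for Pdgfb, 0.944 for Pdgfc, 0.933 for Pdgfd, 0.953 for Pdgfra and 0.913 for Pdgfrb.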

How the data were processed

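The authors deposited gene-level FPKM, made from RNA of 12 libraries extracted with RNeasy Micro kits. The submitters' processing notes name Salmon, bcl2fastq (2.17.1.14) and the builds mm10 and GRCm38; Salmon's version, strandedness, gene lengths and run dates: not given in the sources used here. Identifiers were matched to GENCODE M21 (24189 of 24432 had a symbol). Depth was estimated from the FPKM that 1 fragment gives in low genes of at least 3 kb, so fragment numbers are approximate.

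Log2(FPKM + 1) was fitted with limma 3.58.1 (R 4.3.3), empirical Bayes with trend, no covariates; genes kept had 1 FPKM or more in at least 3 of 12 libraries (16313). Within a comparison, Benjamini-Hochberg adjustment ran over all genes kept. The fit was tested on simulated data. Pair differences used exact permutation tests (scipy 1.17.1). Motifs were searched on both strands. The members and lists were chosen with earlier results of these data known, so they are not independent support. Named genes were the 6 members, per list and comparison up to 2 called genes with the largest difference each way and the most abundant gene, and 3 nearest patterns per member; not all are printed. Alternatives were other pseudocounts, filters, scalings, variance models, a replicate block and left-out libraries. Same-numbered libraries did not deviate together (correlations of deviations -0.043 to 0.098). This check cannot exclude that same-numbered libraries share an animal. The labels do not give the animals, so the main fit used no pairing.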

Additional observations from a re-analysis of the deposited data

Results flagged for a closer look

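Pdgfc differed between tumor groups that were each compared with the same proximal tubule cells. It was lower in all 3 primary tumors and all 3 metastases than in any proximal tubule library, while allograft tumors overlapped proximal tubule cells (0.53, limma adjusted p = 0.228). The direct difference was 1.51 for allograft over primary tumors and 1.86 for allograft tumors over metastases, both called by limma. The 3 allograft values were 14.3, 15.4 and 34.6 FPKM, so the mean leans on allograft tumor 3; without it the difference from primary tumors was 1.12 and from metastases 1.47, the lowest over the left-out libraries, with adjusted p of at most 0.0403 and 0.0277 over all of them. The difference between allograft tumors and proximal tubule cells changed sign with the scaling, so no rise of Pdgfc there was shown.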

How the results depend on the processing

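Of 972 alternative values for the 6 genes in 6 comparisons (27 settings), 916 kept direction and side of the threshold, 36 lost a call, 4 gained one and 16 changed sign, none of the last having been called. Sign changes were Pdgfb in primary tumors over proximal tubule cells (TPM -0.44, median-of-ratios -0.03, quantile -0.044), Pdgfc in allograft tumors over proximal tubule cells (TPM -0.80, median-of-ratios -0.079, without the 50 most abundant genes -0.14, protein-coding genes with median-of-ratios -0.064), and, without primary tumors 2 and 3, Pdgfd (-0.36) and Pdgfrb (-0.77) in metastases over primary tumors. With array weights Pdgfrb in allograft over primary tumors was 0.18 and Pdgfb in allograft tumors over metastases 0.17. Leaving out 1 library, Pdgfra in metastases over primary tumors ran from -0.388 to 0.004, Pdgfrb there from -0.21 to 0.59, Pdgfrb in allograft over primary tumors from -0.57 to 0.23, and Pdgfb in allograft tumors over metastases from -0.269 to 0.063. Without primary tumors 2 and 3, in which Slc34a1 was high, Pdgfrb was called lower in allograft than in the remaining primary tumor (-1.13, adjusted p = 0.0357 by limma), the lone library being assumed to vary like the other groups.

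The count of PDGF genes called was 3 with TPM in allograft tumors over proximal tubule cells. In metastases over primary tumors it was 1 with TPM, without the 50 most abundant genes and with only the 2 groups, 0 without primary tumors 2 and 3, where 1155 genes were called in all and 7 pathway genes, and 1 to 2 with 1 library left out. Pathway genes called in primary tumors over proximal tubule cells numbered 43, and 27 with TPM or without the 50 most abundant genes, 28 with either median-of-ratios scaling and 25 with quantile normalization; in metastases over proximal tubule cells 31 with TPM, against 49. For metastases over primary tumors they numbered 16, and 9 with a pseudocount of 0.1, 10 with no filter, 6 with TPM or without the 50 most abundant genes, 43 with array weights, 7 with only the 2 groups and 6 to 27 with 1 library left out. For allograft over primary tumors they numbered 28, and 11 with only the 2 groups and 12 without primary tumors 2 and 3; for allograft tumors over metastases 14, and 26 with array weights and 9 to 18 with 1 library left out.

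Over all genes, 8661 were called in primary tumors over proximal tubule cells, and 5738 with quantile normalization. In metastases over primary tumors 3414 were called, and 9743 with array weights, 1175 with only the 2 groups and 1554 to 6268 with 1 library left out. In allograft over primary tumors 6784 were called, and 2893 with only the 2 groups and 3271 without primary tumors 2 and 3. In allograft tumors over metastases 3872 were called, and 6511 with array weights and 2278 to 4876 with 1 library left out. Among pair differences, Pdgfrb minus Pdgfra in allograft tumors over proximal tubule cells was 0.56 with a pseudocount of 5 and -0.27 to 0.22 with 1 library left out, and in metastases over primary tumors -0.47 without primary tumors 2 and 3. Pdgfa minus Pdgfc in allograft over primary tumors was 0.17 with a pseudocount of 5, 0.004 with TPM, 0.0 with median-of-ratios scaling, and -0.39 to 0.26 with 1 library left out. Pcsk7 in primary tumors over proximal tubule cells was -0.008 with TPM, and Plau there 0.12 with array weights. The cause was not tested for any of these. With the replicate number as a block, 4 PDGF genes were called in primary tumors over proximal tubule cells, Pdgfc being lost (adjusted p = 0.0703 by limma), and no other call on the 6 genes changed; the pairing has no basis in the labels. Pdgfra in proximal tubule cells rests on 3.2 to 6.1 estimated fragments a library, which limits its fold changes.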
